A study of Sus scrofa with 6 samples.

Results

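Oxidative phosphorylation genes were taken as the genes whose pathway annotation in the deposited tables held that entry, together with the protein-coding genes of the mitochondrial genome, and numbered 85 of the 19465 genes listed. Of these, 13 were mitochondrial and 72 nuclear. By symbol, complex I held 7 mitochondrial and 28 nuclear members, complex II 3 nuclear members, complex III 1 of each (CYTB and UQCR10), complex IV 3 mitochondrial and 6 nuclear members, and complex V 2 mitochondrial and 10 nuclear members. The annotation also placed 18 subunits of the vacuolar proton pump (V-ATPase) in the pathway, the cytochrome c oxidase assembly factor COX17, and 5 other enzymes (ATP4A, ATP4B, LHPP, PPA1 and PPA2).

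In mitochondria, complexes I to IV pass electrons from NADH and succinate to oxygen, complexes I, III and IV pump protons across the inner membrane, and complex V, the ATP synthase, uses the returning protons to make ATP. Complexes I, III, IV and V are built from subunits of both genomes, while complex II is wholly nuclear. The mitochondrial genes are transcribed together as long precursors that are cut and degraded separately, so their mature transcripts need not be equally abundant. The V-ATPase is a related rotary pump that runs in the other direction, spending ATP to acidify lysosomes, endosomes and secretory granules, and it takes no part in making ATP.

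RNA was sequenced from hypothalamus, pituitary and ovary of Landrace x Large White sows that had borne 1 litter, either in an anestrus ascribed to inactive ovaries or in normal estrus. According to the labels each state was sampled from 3 sows. Pooling of their RNA and their ages are not stated. There were 6 libraries, 1 for each tissue and state, so no difference below has a replicate check and no test of the states was possible within a tissue. Library totals lay between 15314325 and 17384789 reads assigned to genes, and each library detected 15182 to 15591 genes. The tissue labels were checked against defining markers. Summed pituitary markers made up 259617 RPM (reads per 1000000 reads assigned to genes) in the anestrous and 248881 RPM in the estrous pituitary library, against 100 to 460 in the libraries of the other tissues. Summed ovary markers made up 1387 RPM in the anestrous and 13806 in the estrous ovary library, against 47 to 55 elsewhere. Summed hypothalamus markers made up 882 and 1594 RPM in the anestrous and estrous hypothalamus, against 49 at most elsewhere.

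Values are normalised read counts, that is, each gene's reads scaled by its library's size factor. Log2 folds compare the anestrous with the estrous library of a tissue, with 1 added to each count, and were read only for members whose mean count in that tissue was at least 50. In the hypothalamus 77 of the 85 members passed, with 76 passing in the pituitary and 75 in the ovary, and all 13 mitochondrial members among them in each. The median log2 fold over all genes past the same floor was 0.01 for hypothalamus and pituitary and 0.02 for ovary. Intervals are 95% Clopper-Pearson intervals of the read counts. They cover counting error only, since 1 library per tissue and state holds no error between animals. Reads copied by PCR are not independent molecules, so the intervals may be too narrow even for counting error. In bulk tissue, fewer cells of a type and less RNA per cell cannot be told apart.

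Few members reached the 1.5-fold difference used here in the hypothalamus and pituitary, and most of those that did were mitochondrial. In the anestrous hypothalamus 4 members were higher by that size and 1 lower, against 4.76% and 4.9% of all genes past the floor. In the anestrous pituitary 5 were higher and 1 lower, against 4.66% and 6.81%, and in the anestrous ovary 16 were higher and 6 lower, against 21.5% and 16.8%. At 2-fold, 2 members were higher and 1 lower in the hypothalamus (1.29% and 1.04% of all genes), 1 higher and 1 lower in the pituitary (1.2% and 1.9%), and 7 higher and 2 lower in the ovary (12.3% and 7.95%). Of the members past 1.5-fold, 4 of the higher and 1 of the lower ones were mitochondrial in the hypothalamus and likewise in the pituitary, and 8 of the higher and 1 of the lower ones in the ovary.

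Mitochondrial transcripts were higher in the anestrous library of each tissue when summed, but single genes ranged from nearly 3-fold higher to more than 3-fold lower. ND2 was the highest and ATP8 the lowest of the 13 in all 3 tissues. Reads of the 13 genes made up 20.6% of the anestrous and 17.8% of the estrous hypothalamus library. They made up 5.09% and 4.20% of the anestrous and estrous pituitary libraries and 5.91% and 4.35% of the anestrous and estrous ovary libraries. The summed normalised count was 1.24-fold higher in the anestrous hypothalamus (1.237 to 1.241), 1.31-fold higher in the anestrous pituitary (1.309 to 1.318) and 1.56-fold higher in the anestrous ovary (1.558 to 1.567). The hypothalamus libraries thus gave a larger share of their reads to mitochondrial transcripts than those of the other tissues in either state. When every library was scaled to the same total, log2 folds were lower by 0.09 for hypothalamus, 0.12 for pituitary and 0.20 for ovary, and the 3 summed log2 folds, 0.31, 0.39 and 0.64 by the deposited scaling, were 0.22, 0.28 and 0.44.

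**Figure D1:**
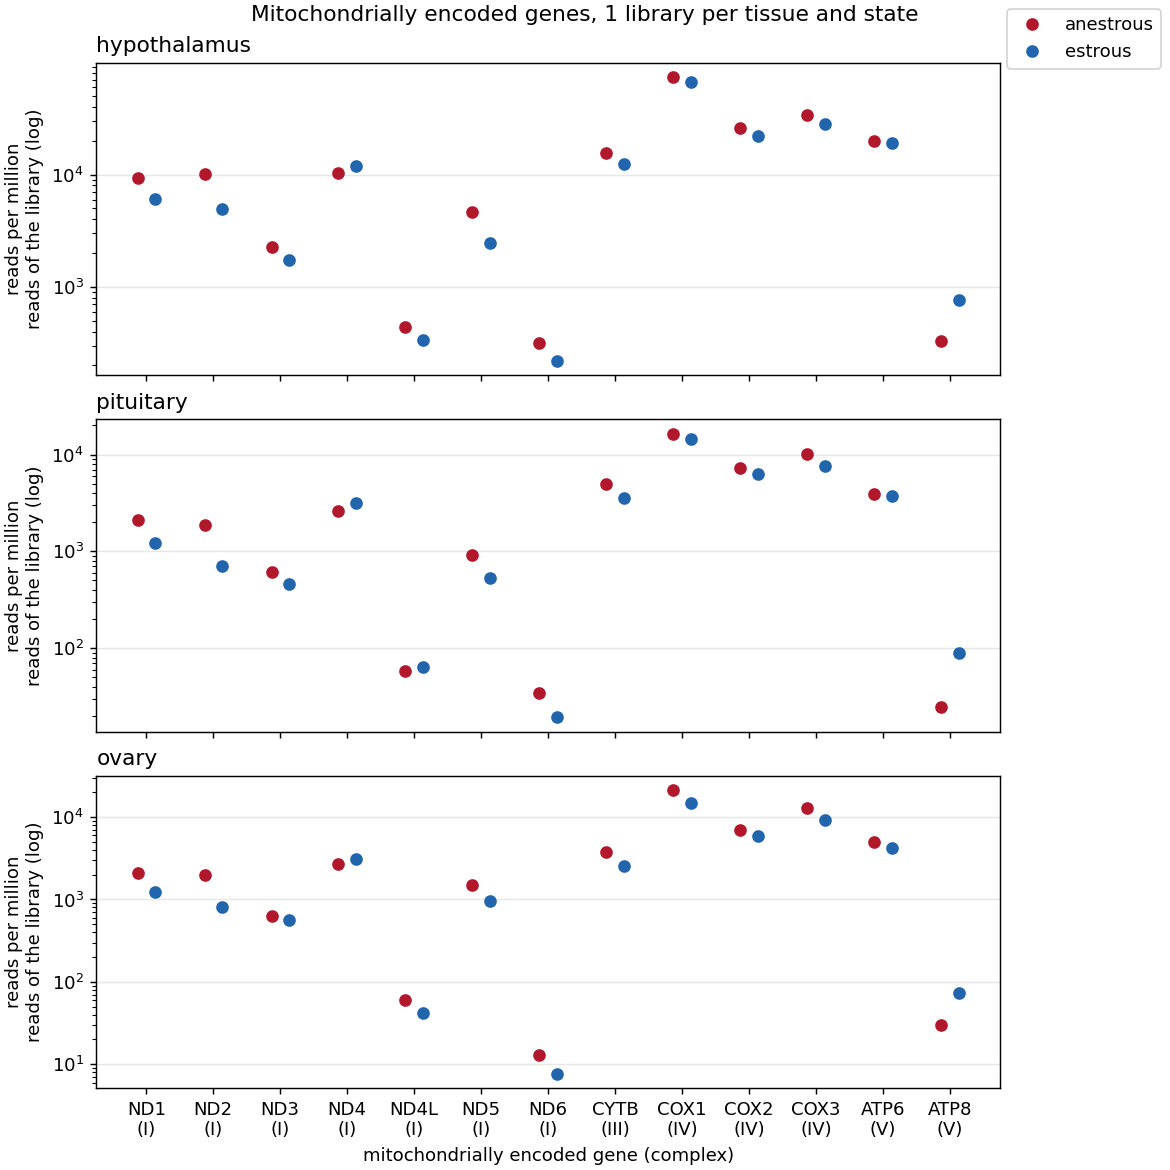
RPM, reads per 1000000 (log axis), of the 13 mitochondrial genes in the anestrous and estrous library of each tissue, 1 library per point. In every tissue the anestrous point of ND2 lies above the estrous point and that of ATP8 below it, while the points of ND4 lie close together.

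Among the 7 mitochondrial subunits of complex I, the NADH dehydrogenase, 4 were at least 1.5-fold higher in all 3 anestrous libraries. ND2 (ENSSSCG00000018069), a subunit of the proton-pumping membrane arm, had a normalised count of 163031 in the anestrous and 74178 in the estrous hypothalamus, 33693 and 11750 in the anestrous and estrous pituitary, and 34201 and 11961 in the anestrous and estrous ovary. It was 2.20-fold higher in the anestrous hypothalamus (2.18 to 2.22), 2.87-fold in the pituitary (2.81 to 2.93) and 2.86-fold in the ovary (2.80 to 2.92). Its share of all mitochondrial reads was 4.92% in the anestrous and 2.77% in the estrous hypothalamus, 3.70% and 1.69% in the anestrous and estrous pituitary, and 3.38% and 1.85% in the anestrous and estrous ovary. ND2 was thus higher within the mitochondrial pool as well as in the library, in every tissue.

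ND1, which sits where the membrane arm meets the quinone site, had counts of 150592 and 90515 in the anestrous and estrous hypothalamus, 37317 and 20083 in the anestrous and estrous pituitary, and 35866 and 18503 in the anestrous and estrous ovary. These were 1.66-fold, 1.86-fold and 1.94-fold higher in the anestrous libraries. ND5, a further proton-pumping subunit, had counts of 74575 and 36789 in the anestrous and estrous hypothalamus, 16546 and 8673 in the anestrous and estrous pituitary, and 25403 and 14390 in the anestrous and estrous ovary. ND5 was 2.03-fold, 1.91-fold and 1.77-fold higher in these anestrous libraries, and its share of mitochondrial reads was also higher in each (2.25% anestrous and 1.37% estrous in hypothalamus, 1.82% anestrous and 1.25% estrous in pituitary, 2.51% anestrous and 2.22% estrous in ovary). ND6 rested on fewer reads. It is encoded on the strand opposite to the other mitochondrial protein genes, and the strand setting of the counting is not given. ND6 may therefore hold reads from the other strand. It had counts of 5102 and 3287 in the anestrous and estrous hypothalamus, 615 and 318 in the anestrous and estrous pituitary, and 220 and 114 in the anestrous and estrous ovary, and was 1.55-fold (1.49 to 1.62), 1.93-fold (1.69 to 2.22) and 1.92-fold (1.53 to 2.43) higher.

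The other mitochondrial subunits of complex I differed less. ND3 had counts of 36331 and 26272 in the anestrous and estrous hypothalamus, 10893 and 7684 in the anestrous and estrous pituitary, and 10689 and 8331 in the anestrous and estrous ovary, with log2 folds of 0.47, 0.50 and 0.36. ND4, also a proton-pumping subunit, had 166005 and 180698 in the anestrous and estrous hypothalamus, 46504 and 52729 in the anestrous and estrous pituitary, and 46269 and 45673 in the anestrous and estrous ovary. Its log2 folds were -0.12, -0.18 and 0.02, of which the ovarian one was below 0 at equal library totals, and its share of mitochondrial reads was lower in the anestrous library of each tissue (5.01% anestrous and 6.75% estrous in hypothalamus, 5.10% anestrous and 7.60% estrous in pituitary, 4.58% anestrous and 7.06% estrous in ovary). ND4L was the subunit whose size of difference varied most between tissues, with counts of 7005 and 5089 in the anestrous and estrous hypothalamus, 1038 and 1054 in the anestrous and estrous pituitary, and 1022 and 629 in the anestrous and estrous ovary. Its log2 folds were 0.46, -0.02 and 0.70. The reading frames of ND4L and ND4 overlap in mammals, and the sources used here do not give how reads over both were assigned. The split between these genes is therefore uncertain.

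CYTB, the mitochondrially encoded cytochrome of complex III, had counts of 250293 and 188496 in the anestrous and estrous hypothalamus, 88941 and 59322 in the anestrous and estrous pituitary, and 63555 and 37819 in the anestrous and estrous ovary. It was 1.33-fold, 1.499-fold and 1.68-fold higher in these anestrous libraries, and the pituitary value lay just under the log2 fold of 1.5 (0.584 against 0.585). COX1, the catalytic subunit of complex IV, had counts of 1182259 and 1013263 in the anestrous and estrous hypothalamus, 294646 and 236757 in the anestrous and estrous pituitary, and 365952 and 221034 in the anestrous and estrous ovary. COX1 was 1.17-fold, 1.24-fold and 1.66-fold higher in the anestrous libraries of hypothalamus, pituitary and ovary.

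COX2, which receives electrons from cytochrome c, had counts of 415150 and 329435 in the anestrous and estrous hypothalamus, 130772 and 105003 in the anestrous and estrous pituitary, and 118755 and 88612 in the anestrous and estrous ovary, with log2 folds of 0.33, 0.32 and 0.42. COX3, the remaining mitochondrial subunit of that enzyme, had 542885 and 428366 in the anestrous and estrous hypothalamus, 180022 and 126980 in the anestrous and estrous pituitary, and 223135 and 135381 in the anestrous and estrous ovary, with log2 folds of 0.34, 0.50 and 0.72. All 3 subunits of complex IV were thus higher in each anestrous library. Together they held 64.5% of the mitochondrial reads in the anestrous and 66.2% in the estrous hypothalamus, 66.5% and 67.6% in the anestrous and estrous pituitary, and 70.0% and 68.8% in the anestrous and estrous ovary. Their joint share of the pool therefore differed by less than 2 percentage points in each tissue.

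The 2 mitochondrial subunits of the ATP synthase, whose reading frames overlap on a shared transcript in mammals, went opposite ways. ATP6, which forms the proton channel, had counts of 317260 and 288456 in the anestrous and estrous hypothalamus, 69625 and 61829 in the anestrous and estrous pituitary, and 85172 and 63293 in the anestrous and estrous ovary, with log2 folds of 0.14, 0.17 and 0.43. ATP8 (ENSSSCG00000018080), a small subunit of the membrane part, had 5289 and 11597 in the anestrous and estrous hypothalamus, 443 and 1455 in the anestrous and estrous pituitary, and 511 and 1093 in the anestrous and estrous ovary. ATP8 was 2.19-fold lower in the anestrous hypothalamus (2.12 to 2.27), 3.29-fold lower in the pituitary (2.95 to 3.67) and 2.14-fold lower in the ovary (1.92 to 2.38). It held 0.16% of the mitochondrial reads in the anestrous and 0.43% in the estrous hypothalamus, 0.05% and 0.21% in the anestrous and estrous pituitary, and 0.05% and 0.17% in the anestrous and estrous ovary. Since reads of the overlap may have been counted for either gene, the level of ATP8 itself is uncertain.

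**Figure D2:**
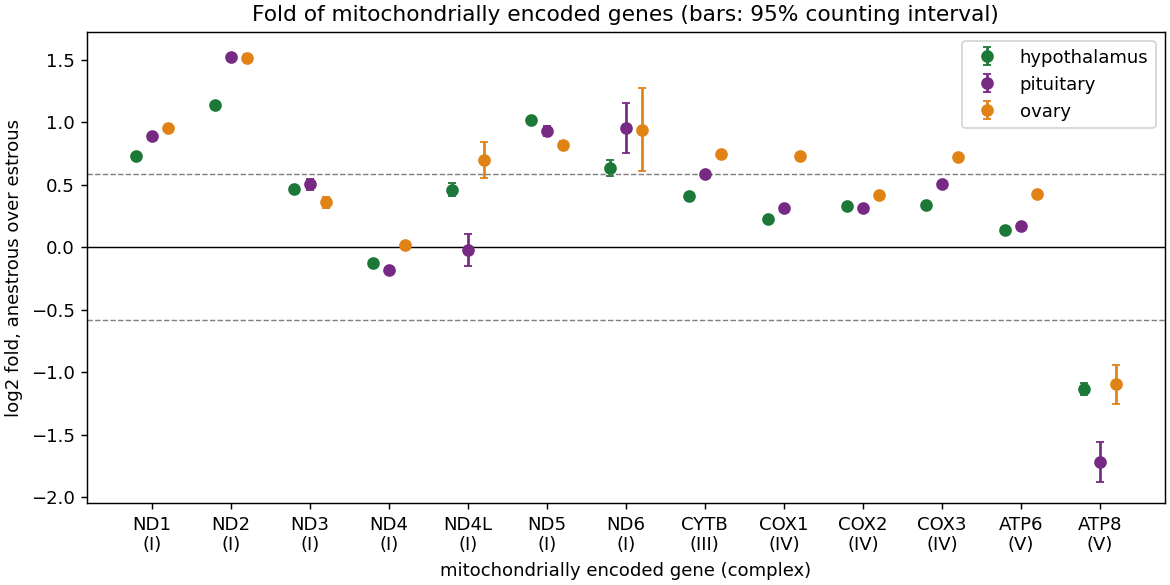
Log2 ratio of anestrous to estrous normalised counts for each mitochondrial gene in 3 tissues, with 95% counting intervals that carry no error between animals. Dashed lines mark 1.5-fold. ND1, ND2, ND5 and ND6 lie above the upper line in each tissue and ATP8 below the lower one.

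Of the 74 members past the floor in all 3 tissues, 4 were at least 1.5-fold higher in every anestrous library (ND1, ND2, ND5 and ND6) and 1 was at least 1.5-fold lower in every one (ATP8). Over the 9349 genes past the floor in all 3 tissues, such a difference was found in 0.257% (higher) and 0.299% (lower). At 2-fold, ND2 was higher and ATP8 lower in all 3, against 0.128% higher and 0.0428% lower over all genes. At equal library totals ND6 was under 1.5-fold in the hypothalamus, which left 4 members in all. None of the 61 nuclear members past the floor in all 3 tissues differed 1.5-fold the same way in each, which is close to the 0.257% and 0.299% over all genes. Tissues are not replicates of a state, and whether the tissues of a state came from the same sows is not given, so these shared directions rest on 1 library per state and tissue. In the authors' deposited table, the adjusted p was at most 0.05 for 2 members in the pituitary (0.0223 for ND2 and 2.97e-05 for ATP8), against 0.802% of all pituitary genes past the floor. It was above 0.05 for every member in the hypothalamus, where ATP8 had the lowest at 0.0588, and in the ovary, where ATP6V1C2 had the lowest at 0.917, against 0.86% and 0.981% of all genes called. A count test with tissue as block, the 3 tissues standing in for replicates, called none of the members by edgeR's quasi-likelihood test (lowest adjusted p over all genes 0.282). By edgeR 7 members had an unadjusted p under 0.05, against 542 of all 14444 genes tested. By DESeq2 it called 46 of 16887 genes, with ND1, ND2, ND5 and ATP8 among them. The p-values in the authors' deposited table compare 2 libraries, not the states.

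Nuclear subunits of complexes I to V with the pathway entry differed little and not the same way in each tissue. By the deposited scaling they were mostly higher in the anestrous hypothalamus and mostly lower in the anestrous pituitary and ovary, with few past 1.5-fold. In the hypothalamus 41 of 47 were higher and 6 lower (median log2 fold 0.16), against 51.6% of all genes higher, and none was past 1.5-fold in either direction, against 4.76% of genes higher and 4.9% lower. In the pituitary 14 of 46 were higher and 32 lower (median -0.08), against 51.3% of all genes higher, and again none was past 1.5-fold, against 4.66% higher and 6.81% lower. In the ovary 13 of 46 were higher and 33 lower (median -0.14), against 51.2% of all genes higher. None of the ovarian ones was higher by 1.5-fold or more and 4 were lower by that size, against the 21.5% and 16.8% of genes given above. With equal library totals some were past 1.5-fold lower, NDUFC2 in the hypothalamus, and NDUFA4 and NDUFB2 among those in the pituitary. The splits at those totals were 34 higher and 13 lower for hypothalamus and 4 higher and 43 lower for pituitary. For ovary the split was 4 higher and 42 lower. By the deposited scaling the summed count of these subunits was 1.16-fold higher in the anestrous hypothalamus (1.15 to 1.17). The ratio of anestrous to estrous was 0.96 in the pituitary (0.95 to 0.97) and 0.92 in the ovary (0.91 to 0.93). Subunits without the pathway entry, given further below, split otherwise, with 8 of 16 higher in the pituitary and 9 of 15 in the ovary. In the hypothalamus 14 of 16 of those were higher.

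Markers of other cell types differed between the same libraries. In the hypothalamus, 9 of 9 neuron markers were higher in the anestrous library (median log2 fold 0.50, summed 6645 RPM anestrous and 5111 estrous). Of these, 2 were past 1.5-fold, against 4.76% of all genes higher. Myelin markers were lower in 5 of 5 (median -0.34, 13853 RPM anestrous and 18933 RPM estrous). Astrocyte markers were lower in 3 of 4 (median -0.09, 11754 RPM anestrous and 17156 RPM estrous). Thalamus markers were higher in 4 of 5 (median 0.58, 642 RPM anestrous and 355 RPM estrous). Markers of choroid plexus and ependyma were lower in 4 of 5 (median -0.99, 86 RPM in the anestrous and 199 RPM in the estrous library). None of these markers was at 0 in either hypothalamus library. In the ovary, 9 of 9 granulosa markers were lower (median -1.73, 2376 RPM anestrous and 12890 RPM estrous), 5 of 6 theca and luteal markers were lower (median -2.09, 3741 RPM anestrous and 9694 RPM estrous) and 5 of 5 oocyte markers over the floor were lower (median -1.997, 53 RPM anestrous and 172 RPM estrous). Among pituitary libraries, endothelium markers were higher in 3 of 3 (median 0.39, 296 RPM anestrous and 222 RPM estrous), smooth muscle markers were higher in both of those over the floor (median 0.76, 111 RPM anestrous and 73 RPM estrous), and neuron markers were higher in 3 of 7 (median -0.13, 764 RPM anestrous and 1131 RPM estrous, 1 at 0 in the anestrous library). The pituitary's own markers were higher in 5 of 8, with log2 folds between -1.21 and 2.02. The part of these cell types in the differences of the nuclear and mitochondrial members was not tested.

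In complex I, 24 of 28 nuclear members were higher in the anestrous hypothalamus (median 0.15), 8 of 27 in the pituitary (median -0.09) and 7 of 27 in ovary (median -0.19). At equal library totals 21 of 28 were higher in the hypothalamus, 2 of 28 in the pituitary and 1 of 27 in the ovary. The highest in the hypothalamus were NDUFAB1, the mitochondrial acyl carrier protein (1737 in the anestrous and 1241 in the estrous library, log2 fold 0.48), and NDUFB5, an accessory subunit of the membrane arm (775 anestrous and 555 estrous, log2 fold 0.48). The lowest there were NDUFC2 (52 anestrous and 75 estrous, log2 fold -0.52) and NDUFA8 (975 anestrous and 1010 estrous, log2 fold -0.05). NDUFC2, an accessory subunit of the membrane arm, had few reads in every library. Its counts were 27 in the anestrous and 73 in the estrous pituitary and 21 and 56 in the anestrous and estrous ovary, under the floor in these tissues, with the anestrous count lower each time.

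In the pituitary the highest log2 folds of complex I were those of NDUFB7 (log2 fold 0.20) and NDUFA12 (log2 fold 0.19), and the lowest those of NDUFA4 (702 in the anestrous and 1009 in the estrous library, log2 fold -0.52) and NDUFB2 (585 anestrous and 814 estrous, log2 fold -0.48), all 4 accessory subunits by name. NDUFA4, which carries a complex I symbol but has since been assigned to complex IV, had counts of 5077 and 4244 in the anestrous and estrous hypothalamus and 2149 and 2181 in the anestrous and estrous ovary, so its low value was not shared by those tissues. In the ovary NDUFS3, a core subunit of the arm that binds NADH (1523 in the anestrous and 1273 in the estrous library, log2 fold 0.26), and NDUFB6 (541 anestrous and 499 estrous, log2 fold 0.12) were highest. NDUFC1 (378 anestrous and 746 estrous, log2 fold -0.98) and NDUFS4 (704 anestrous and 1272 estrous, log2 fold -0.85), an accessory subunit needed for a stable complex, were lowest. NDUFC1 was thus 1.98-fold lower (1.74 to 2.24) and NDUFS4 1.81-fold lower (1.65 to 1.99) in the anestrous ovary, whereas their log2 folds lay between -0.20 and 0.17 in the other tissues.

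Complex II, succinate dehydrogenase, had log2 folds between 0.02 and 0.22 in the hypothalamus. Its iron-sulfur subunit SDHB was the highest of the complex in the pituitary (1819 in the anestrous and 1378 in the estrous library, log2 fold 0.40) and the ovary (2223 anestrous and 1904 estrous, log2 fold 0.22). The membrane anchor SDHC had log2 folds of -0.02 in pituitary and, with counts of 1811 in the anestrous and 2339 in the estrous library, -0.37 in ovary. UQCR10, a small subunit and the sole nuclear member of complex III here, had counts of 1172 and 1103 in the anestrous and estrous hypothalamus, 906 and 987 in the anestrous and estrous pituitary, and 1031 and 1415 in the anestrous and estrous ovary. Its log2 folds were 0.09, -0.12 and -0.46, the hypothalamic one being below 0 at equal library totals.

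Among the annotated nuclear members, complex IV had the lowest ovarian median of the 5 complexes, close to the value of UQCR10 in complex III. Subunits without the pathway entry lay on both sides of 0 in the ovary. Past the floor, their log2 folds ran from -0.31 (COX6A2) to 0.75 (COX5A) in complex IV and from -0.15 (UQCR11) to 0.59 (UQCRC2) in complex III. All 5 annotated members of complex IV past the floor were lower in the anestrous ovary (median -0.46). Of these, 2 were past 1.5-fold, against 16.8% of all genes that much lower. In the hypothalamus 4 of 5 were higher (median 0.12) and in the pituitary 4 of 5 were lower (median -0.09). COX7A1, the isoform typical of heart and skeletal muscle, had counts of 255 in the anestrous and 582 in the estrous ovary and was 2.28-fold lower (1.96 to 2.66). Smooth muscle markers were lower in 3 of 4 there (median -0.46, 4550 RPM anestrous and 6410 RPM estrous), and their part in this difference was not tested. COX6A1, the isoform found in most tissues, had 3271 anestrous and 4958 estrous and was 1.52-fold lower (1.45 to 1.58), and COX7A2, the broadly expressed relative of COX7A1, had 778 anestrous and 1070 estrous (log2 fold -0.46). In the other tissues COX7A1 had counts of 421 and 449 in the anestrous and estrous hypothalamus and 399 and 447 in the anestrous and estrous pituitary, where both counting intervals of its fold included 1. COX8H, listed among the members, had 8 in the anestrous and 17 in the estrous hypothalamus and 0 in the other 4 libraries.

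In complex V, 9 of 10 nuclear members were higher in the anestrous hypothalamus (median 0.21), 4 of 10 in the pituitary (median -0.03) and 5 of 10 in the ovary (median -0.01). At equal library totals 8, 1 and 2 of 10 were higher. The catalytic part was represented by ATP5A1, with counts of 13074 and 10347 in the anestrous and estrous hypothalamus (log2 fold 0.34), and by ATP5B (log2 folds 0.33 in the hypothalamus, -0.12 in the pituitary, -0.07 in the ovary). ATP5G3, 1 of the genes for the ring subunit, had 3236 and 2553 in the anestrous and estrous hypothalamus (log2 fold 0.34). ATP5E, the epsilon subunit, was lower in the anestrous library in each tissue, with 1981 and 2297 in the anestrous and estrous hypothalamus, 5404 and 6212 in the anestrous and estrous pituitary, and 3204 and 3556 in the anestrous and estrous ovary (log2 folds -0.21, -0.20 and -0.15). In the pituitary ATP5O, the stalk subunit, was highest (3033 anestrous and 2558 estrous, log2 fold 0.25). In the ovary ATP5D (log2 fold 0.24) and ATP5G1 (log2 fold 0.23) were highest and ATP5I lowest (log2 fold -0.35).

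**Figure D3:**
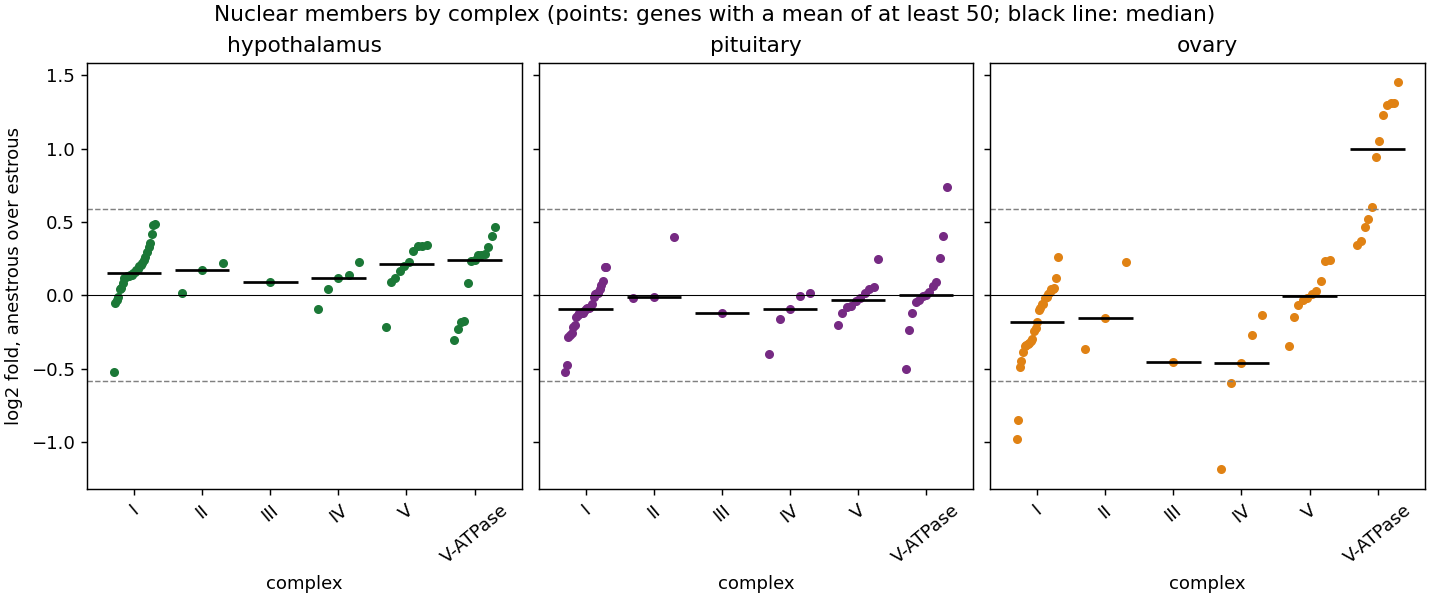
Log2 folds of the nuclear members past the floor, by complex and tissue, 1 point per gene, with the median of each group as a black line and dashed lines at 1.5-fold. In the ovary the V-ATPase points lie above 0 (median 1.00) and the complex IV points below it (median -0.46).

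In the ovary the V-ATPase genes lay on the other side of 0 from most annotated nuclear subunits of complexes I to V. All 12 past the floor were higher in the anestrous ovary (median log2 fold 1.00), 8 by at least 1.5-fold and 6 by at least 2-fold, while 21.5% and 12.3% of all ovarian genes were that much higher. Of the 8, ATP6V0D2 passed the floor only through its anestrous count. Among the pump genes under the floor, ATP6V1C2 and ATP6V1G2 were lower in the anestrous ovary and ATP6V1G3 was higher. With no floor the ovarian median over all 18 pump members was 0.77. The summed count of all 18 was 2.03-fold higher (1.99 to 2.06). In the hypothalamus 9 of 13 were higher (median 0.24, and 0.15 at equal library totals). None was past 1.5-fold in the hypothalamus, against 4.76% of all genes higher and 4.9% lower. The sector medians differed there, with 2 of 5 V0 genes higher (median -0.17) and 7 of 8 V1 genes (median 0.28). The summed counts of both sectors were higher, 1.18-fold for V0 (1.15 to 1.20) and 1.24-fold for V1 (1.21 to 1.26). With no floor on low counts the hypothalamic median over all listed pump genes was 0.058. In the pituitary the split depended on the scaling. By the deposited scaling 6 were higher and 7 lower (median -0.00), by a trimmed mean of log ratios 8 were higher and 5 lower (median 0.00), and at equal library totals 3 were higher and 10 lower (median -0.12). By the deposited scaling the only pump gene past 1.5-fold in the pituitary was ATP6V1C2, a subunit C isoform whose mean lay close to the floor. It had 83 in the anestrous and 50 in the estrous library (1.68-fold, 1.17 to 2.44). At equal library totals ATP6V0A2 (log2 fold -0.50 by the deposited scaling) was past 1.5-fold lower in the pituitary. At equal library totals all 12 were still higher in the anestrous ovary, with a median of 0.80 and 7 past 1.5-fold.

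The membrane sector V0, which conducts the protons, had a median log2 fold of 1.09 in the ovary. ATP6V0C (ENSSSCG00000008056), the ring subunit, had counts of 13550 in the anestrous and 4955 in the estrous ovary and was 2.73-fold higher (2.65 to 2.82). TCIRG1, the subunit a isoform typical of osteoclasts and macrophages, had 1723 and 694 in the anestrous and estrous ovary (2.48-fold, 2.28 to 2.72). Per library total these were 101 RPM anestrous and 46.6 RPM estrous, against 9.99 RPM anestrous and 12.01 RPM estrous in hypothalamus and 14.6 RPM anestrous and 11.9 RPM estrous in pituitary. ATP6V0E1 had 4238 and 1811 in the anestrous and estrous ovary (2.34-fold). ATP6V0D2, the subunit d isoform known from osteoclasts and macrophages, had 82 and 42 in the anestrous and estrous ovary (1.95-fold, 1.33 to 2.88), from 79 and 44 reads, and 0 to 2 reads in the other 4 libraries. Its partner isoform ATP6V0D1, found in most tissues, had 3988 and 3150 in the anestrous and estrous ovary (log2 fold 0.34). The Golgi and endosome isoform ATP6V0A2 had 223 anestrous and 161 estrous there (log2 fold 0.46).

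The ATP-splitting sector V1 had a median log2 fold of 0.83 in the ovary. ATP6V1A, the catalytic subunit, had counts of 2769 in the anestrous and 1127 in the estrous ovary (2.46-fold, 2.29 to 2.63), and ATP6V1H, a regulatory subunit, had 2029 anestrous and 818 estrous (2.48-fold, 2.29 to 2.69). ATP6V1F had 2235 anestrous and 1076 estrous (2.08-fold, 1.93 to 2.23) and ATP6V1C1, the widespread subunit C isoform, 1316 anestrous and 867 estrous (log2 fold 0.60). ATP6V1E1 had a log2 fold of 0.52 and ATP6V1D one of 0.37.

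Several isoforms known from few cell types had few reads or none in some tissues. ATP6V1G2, the neuronal subunit G isoform, had 222 RPM in the anestrous and 171 RPM in the estrous hypothalamus (normalised counts of 3560 and 2578, 1.38-fold, 1.31 to 1.45), 9.32 RPM anestrous and 10.3 RPM estrous in the pituitary, and 1.64 RPM anestrous and 2.91 RPM estrous in the ovary, where it was under the floor. It had the highest log2 fold of the pump genes in the hypothalamus, at 0.47, followed by ATP6V1A at 0.40, while ATP6V1C2 (662 anestrous and 818 estrous, log2 fold -0.30) and ATP6V0E1 (546 anestrous and 639 estrous, log2 fold -0.23) were lowest there. ATP6V1C2 gave 0 reads in the anestrous and 14 in the estrous ovary. ATP6V1G3 gave 16 reads in the anestrous and 2 in the estrous ovary (8.67-fold, 2.04 to 77.7) and none in the other tissues. ATP6V1B1 and ATP6V0A4, isoforms known from the kidney, had counts of at most 18 in any library.

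**Figure D4:**
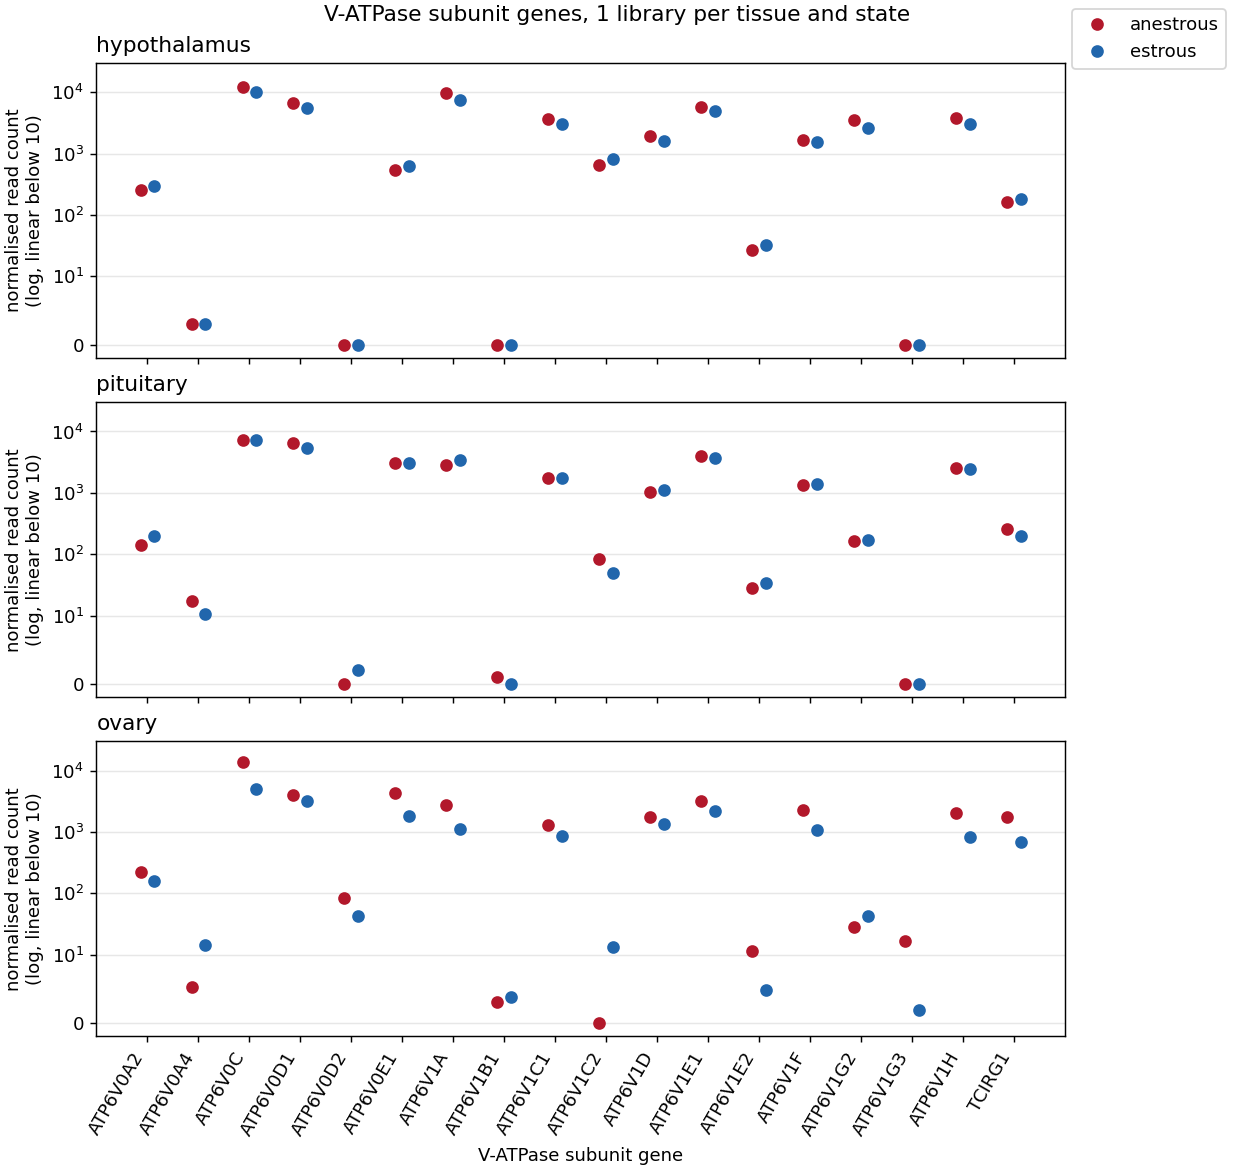
Normalised counts of the 18 V-ATPase members (log axis, linear below 10) in the anestrous and estrous library of each tissue, 1 library per point. In the ovary the anestrous points of ATP6V0C, TCIRG1, ATP6V1H, ATP6V1A, ATP6V0E1 and ATP6V1F lie at least 2-fold above the estrous points.

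Macrophage and phagocyte markers moved with the pump genes in the ovary. All 11 of these markers past the floor, of 12 listed, were at least 1.5-fold higher in the anestrous ovary (median log2 fold 1.72), against 21.5% of all genes past the floor. The list summed to 11366 RPM in the anestrous and 4492 in the estrous library. None of the 12 was at 0 in either ovary library. The same list had medians of -0.17 in the hypothalamus (2 of 10 higher, 1323 RPM anestrous and 1447 RPM estrous) and -0.05 in the pituitary (4 of 10 higher, 1150 RPM anestrous and 1226 RPM estrous). The list includes LAMP1, LAMP2 and cathepsins, which lysosomes of other cells also hold. Its part in the difference of the pump genes was not tested.

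Ratios taken within a library do not depend on how libraries were scaled. Mitochondrial reads per read of the nuclear subunits of complexes I to V were 27.4 in the anestrous and 25.7 in the estrous hypothalamus, 10.1 and 7.41 in the anestrous and estrous pituitary, and 11.9 and 6.98 in the anestrous and estrous ovary. This ratio was thus 1.06, 1.37 and 1.70 times as high in the anestrous library. For complex I alone it was 14.3 and 11.4 in the anestrous and estrous hypothalamus, 5.31 and 3.49 in the anestrous and estrous pituitary, and 5.69 and 3.26 in the anestrous and estrous ovary. For complex IV it was 169 and 154 in the anestrous and estrous hypothalamus, 68.9 and 50.7 in the anestrous and estrous pituitary, and 72.2 and 34.2 in the anestrous and estrous ovary. Complex V was the exception in the hypothalamus, with 5.55 in the anestrous and 6.19 in the estrous library, against 1.49 and 1.30 in the anestrous and estrous pituitary and 2.08 and 1.56 in the anestrous and estrous ovary. Reads of the V-ATPase per read of the nuclear subunits of complexes I to V were 0.417 and 0.400 in the anestrous and estrous hypothalamus, 0.343 and 0.322 in the anestrous and estrous pituitary, and 0.435 and 0.198 in the anestrous and estrous ovary. The ovarian pair differed 2.20-fold. The nuclear reads in all these ratios are only those of subunits with the pathway entry. For complex IV they leave out COX4I1, among others, with counts of 8620 in the anestrous and 7950 in the estrous ovary. The annotated nuclear members of complex IV summed to 9809 and 12994 there, so the ovarian ratio of this complex depends on the annotation.

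**Figure D5:**
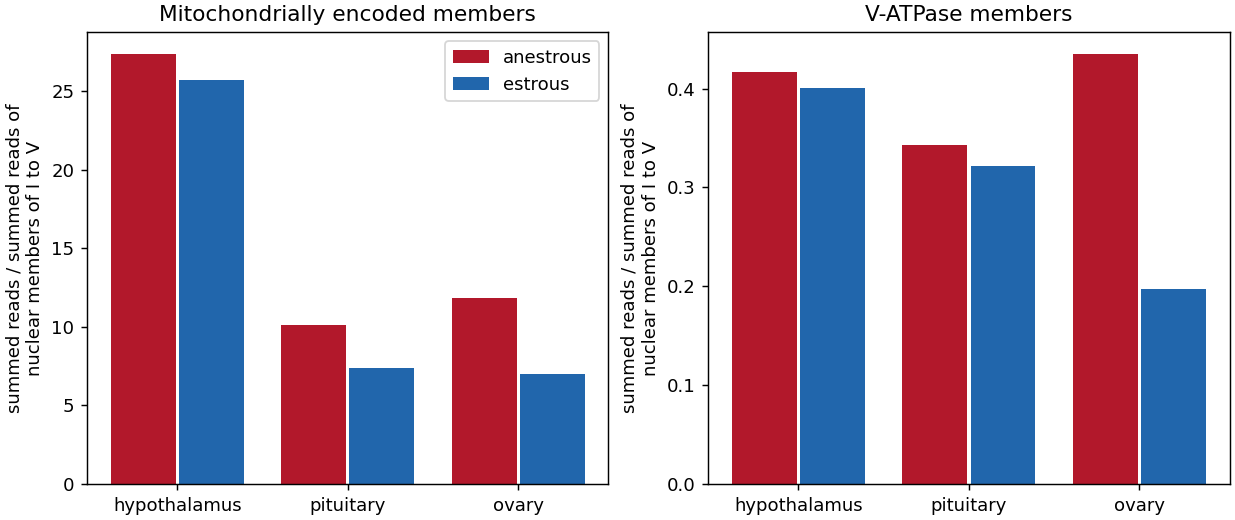
Within-library ratios of summed reads in 3 tissues, with 1 library per bar: mitochondrial members over nuclear members of complexes I to V, and V-ATPase members over the same nuclear members. The first ratio is higher in the anestrous library of each tissue (11.9 anestrous and 6.98 estrous in the ovary), and the second differs most in the ovary (0.435 anestrous and 0.198 estrous).

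The remaining members were a pair of pump subunits and 3 phosphatases. ATP4A and ATP4B, the gastric proton pump, had counts of at most 28 in any library. PPA2, the mitochondrial pyrophosphatase, had 132 in the anestrous and 214 in the estrous ovary (log2 fold -0.69), and its symbol stood at 2 gene IDs, of which 1 carried the pathway entry. LHPP, a histidine phosphatase, had 493 and 718 in the anestrous and estrous ovary (log2 fold -0.54), and PPA1, the cytosolic pyrophosphatase, had 571 anestrous and 444 estrous (log2 fold 0.36). None of the 3 was past 1.5-fold in the other tissues, where their log2 folds lay between -0.19 and 0.23. COX17, the copper chaperone of complex IV, had log2 folds of -0.02, 0.06 and 0.13 in hypothalamus, pituitary and ovary.

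Known subunits of complexes I to V that lacked the pathway entry gave a check on the nuclear members that the rule had not used. Of 18 such genes, 14 of 16 past the floor were higher in the anestrous hypothalamus (median 0.25). In the pituitary 8 of 16 were higher (median -0.01) and in the ovary 9 of 15 (median 0.11). Over all genes past the floor 51.6%, 51.3% and 51.2% were higher. At equal library totals 13, 4 and 4 of the subunits were higher, with medians of 0.16, -0.12 and -0.09. The ovarian majority was therefore not on the same side as that of the annotated members by the deposited scaling. UQCRC2, a core subunit of complex III, had 1325 in the anestrous and 881 in the estrous ovary (log2 fold 0.59). COX5A had 1525 anestrous and 904 estrous there (log2 fold 0.75). These 2 were past 1.5-fold, against 21.5% of all ovarian genes higher. COX4I1, the main isoform of its subunit in most tissues, had log2 folds of 0.02, 0.11 and 0.12 in hypothalamus, pituitary and ovary. ATP6V0A1, a pump subunit without the entry, had 2234 and 1353 in the anestrous and estrous ovary (log2 fold 0.72).

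Genes around the respiratory chain were read from 6 lists. Of assembly factors, 18 of 28 were higher in the anestrous hypothalamus (median 0.11). In the pituitary 15 of 27 were higher (median 0.01) and in the ovary 8 of 29 (median -0.17). Over all genes 51.6%, 51.3% and 51.2% were higher by the deposited scaling. At equal library totals 15, 12 and 6 assembly factors were higher. Past 1.5-fold was 1 in the hypothalamus (NDUFAF4, log2 fold 0.85), against 4.76% of all genes higher. None was in the pituitary, against 4.66% higher and 6.81% lower. In the ovary 1 was higher (LYRM7, 0.62) and 1 lower (NDUFAF5, -0.65), against 21.5% and 16.8%. The lowest in the hypothalamus was COA4 (-0.44), and the pituitary extremes were COX19 (0.57) and PET100 (-0.37). Of regulators of mitochondrial biogenesis and transcription, 7 of 15 were higher in the hypothalamus (median -0.04), 6 of 14 in the pituitary (median -0.04) and 6 of 13 in the ovary (median -0.13). TFB1M, a methyltransferase of mitochondrial ribosomal RNA, was the lowest of that list in each tissue, with 182 and 284 in the anestrous and estrous hypothalamus, 169 and 276 in the anestrous and estrous pituitary, and 269 and 424 in the anestrous and estrous ovary. Its log2 folds were -0.64, -0.71 and -0.66, so it was at least 1.5-fold lower in all 3. Over the genes past the floor in all 3 tissues, 0.299% were. The highest of the list were TEFM in the hypothalamus (log2 fold 0.86), MTERF1 in the pituitary (0.40) and ESRRA in the ovary (0.87). TFAM, which packages mitochondrial DNA and starts its transcription, had log2 folds of 0.08, -0.21 and 0.20.

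Of 15 enzymes of the tricarboxylic acid cycle, 14 were higher in the anestrous hypothalamus (median 0.30). In the pituitary 13 were higher (median 0.14) and in the ovary 8 (median 0.03). Over all genes past the floor 51.6%, 51.3% and 51.2% were higher. At equal library totals 12 of the enzymes were higher in the hypothalamus (median 0.20). There were 8 in the pituitary (median 0.03) and 6 in the ovary (median -0.17). The highest were CS, citrate synthase, in the hypothalamus (128 in the anestrous and 81 in the estrous library, log2 fold 0.66), IDH3G in the pituitary (log2 fold 0.60) and IDH2 in the ovary (4547 anestrous and 2783 estrous, log2 fold 0.71). DLD was the lowest in the ovary (1196 anestrous and 1884 estrous, log2 fold -0.65). Electron carriers and their entry enzymes had medians of 0.00, -0.05 and -0.03. COQ10A was the lowest in the ovary (26 in the anestrous and 94 in the estrous library, log2 fold -1.82). It passed the floor only through its estrous count. GPD2 was the highest in the ovary (382 anestrous and 153 estrous, log2 fold 1.32).

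Of the carriers of nucleotides and protons in the mitochondrial membranes, 3 of 6 were at least 1.5-fold higher and 1 lower in the ovary, against 21.5% and 16.8% of all genes past the floor. In the pituitary 1 of 7 was that much lower, against 6.81%. In the hypothalamus none of 6 was past 1.5-fold, against 4.76% higher and 4.9% lower. UCP2, an uncoupling protein abundant in macrophages, had counts of 2721 in the anestrous and 358 in the estrous ovary (log2 fold 2.92), and SLC25A4, the ATP/ADP carrier of muscle and heart, had 1196 anestrous and 4353 estrous (log2 fold -1.86). SLC25A6, another ATP/ADP carrier, had 2555 anestrous and 1033 estrous (log2 fold 1.31). In the pituitary 6 of 7 of these carriers were lower, UCP3 the most (40 in the anestrous and 358 in the estrous library, log2 fold -3.12). UCP3 was the 1 carrier past 1.5-fold there, and it passed the floor only through its estrous count. In the hypothalamus 5 of 6 were higher (median 0.27), against 51.6% of all genes. Antioxidant enzymes had medians of 0.12, 0.01 and 0.00, and in the ovary SOD2 (3639 in the anestrous and 1543 in the estrous library, log2 fold 1.24) and PRDX3 (2544 anestrous and 5682 estrous, log2 fold -1.16) went opposite ways.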

How the data were processed

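RNA was measured in 6 libraries, 1 each of anestrous and estrous hypothalamus, pituitary and ovary. Per the labels, an Illumina TruSeq kit was used for the libraries and the tables carry the name of DESeq, and the submitters' processing notes list TopHat2 2.1.0. Counter, genome build, annotation and strand setting are not given in the sources used here. Overlapping genes and genes with near-identical copies, nuclear copies of mitochondrial sequence included, are therefore uncertain. The deposited signal of a gene is its reads over a library size factor. Each table also holds p-values of the authors, raw and adjusted. Whole reads were recovered by dividing by the value of 1 read (100% of values within 0.01 read), for 15314325 to 17384789 reads per library. Because each tissue has its own table and scaling, folds stay within a tissue, and levels compared across tissues are reads, RPM or shares; normalised counts of several tissues are listed only as each table's own values.

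Log2 folds used a pseudocount of 1, which understates differences of low genes. Folds and their exact binomial 95% intervals used none. Differences were counted at 1.5-fold and 2-fold for genes with a mean normalised count of at least 50, with no test of states. The rule for naming genes took all mitochondrial members, and the 2 highest and 2 lowest nuclear members per tissue and complex. It also took members past 2-fold, isoform pairs, and the highest and lowest gene of each other list. Not every gene it took is given above, with some isoforms (NDUFA4L2, COX7A2L, COX8A, COX8C, ATP6V1B2 and ATP6V1E2) and some extremes left out. Genes outside that rule, such as those between 1.5-fold and 2-fold, TFAM, SLC25A6, CYTB's threshold and the remaining pump subunits, were chosen after their values were seen. Members, lists and rules were chosen with earlier results of these data known. Symbols were those of the deposited tables, then of a table of Ensembl pig names. Alternatives were equal library totals (with and without mitochondrial reads), a trimmed mean of log ratios, a pseudocount of 5, floors of 0 and 200, the sum without COX1, and calls restricted by the adjusted p in the authors' tables (at most 0.05). A count test with tissue as block, and the other alternatives of the count over all tissues, were added after the data were seen, with edgeR 4.0.16 and DESeq2 1.42.0 in R 4.3.3, tested on simulated data. Other steps used Python 3.11.15 with SciPy 1.17.1.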

Additional observations from a re-analysis of the deposited data

Results flagged for a closer look

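The median log2 fold of the nuclear subunits of complexes I to V with the pathway entry had opposite signs between tissues. The hypothalamic median of 0.16 exceeded the pituitary median of -0.08 by 0.24 and the ovarian median of -0.14 by 0.30. The V-ATPase genes had a median above 0 in the hypothalamus and ovary and one at 0 in the pituitary by the deposited scaling (-0.12 at equal library totals), so by the deposited scaling the hypothalamic value exceeded the pituitary one by 0.24 and the ovarian value exceeded the pituitary one by 1.00. With 1 library per tissue and state, these differences between tissues were not tested. The hypothalamic difference lay beside neuron markers that were higher in 9 of 9, and the ovarian pump difference beside phagocyte markers that were higher in 11 of 11. The part of these cell types was not tested.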

How the results depend on the processing

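No paired analysis was possible because the labels carry no replicate numbers and no tissue has a second library of either state; the count test over tissues, with tissue as block, stands apart from this. Of the summed, median and count results, 66 alternative values stayed within a set range and 36 did not. The range was the counting interval of the sum, the order-statistic interval of the median over members, or 1.5 times the count. These ranges differ in kind, and that of a median holds spread between genes, not error between animals. A pituitary mitochondrial sum of 0.398 against 0.393 fell outside its range. A hypothalamic V-ATPase median of 0.058 against 0.242 stayed within. The 66 and 36 therefore do not measure robustness. Equal library totals gave summed mitochondrial log2 folds of 0.22 in the hypothalamus, 0.28 in the pituitary and 0.44 in the ovary, nuclear medians for complexes I to V of 0.066, -0.20 and -0.35, and 2, 5 and 12 members at least 1.5-fold lower. Totals without mitochondrial reads gave sums of 0.27, 0.29 and 0.47, medians of 0.12, -0.18 and -0.32, and 4 and 11 lower members in pituitary and ovary. Without COX1 the sums were 0.36, 0.43 and 0.60, and the trimmed mean of log ratios gave 0.40 in the pituitary. With no floor, 8 pituitary members were higher, and 3, 3 and 11 members were lower in hypothalamus, pituitary and ovary. At 2-fold, 2, 1 and 7 members were higher, 2 were lower in the ovary, and 2 differed the same way in all 3 tissues. Restricted to genes that the authors' tables call (adjusted p at most 0.05), 0 members were higher in the hypothalamus and ovary and 1 in the pituitary, and 0 were lower in the hypothalamus and ovary. In the count test over tissues, the edgeR quasi-likelihood test called 0 of 14444 genes at an adjusted p of 0.05 (542 at an unadjusted p under 0.05, 7 of them members) and DESeq2 called 46 of 16887, with ND1, ND2, ND5 and ATP8 among them. Median log2 folds of the V-ATPase genes in the ovary ranged from 0.77 to 1.14. Depth limits NDUFC2, ATP6V0D2, ATP6V1C2 and ATP6V1G3, and UCP3 and COQ10A of the other lists, which rest on under 100 reads in a library. The causes of these changes were not tested beyond the shift that each scaling puts on every gene.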
